A study of Drosophila melanogaster with 837 samples.

Results

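The cytoplasmic ribosomal protein genes are the genes that encode the proteins of the ribosome outside mitochondria. Here they were the genes whose symbol starts with RpL or RpS and a digit, or with RpLP, which were 86 of the 8862 genes of the deposited gene table. They comprised 52 genes of the large subunit, counting the RpLP genes, and 34 of the small subunit. By the Ensembl annotation of BDGP6, 20 lay on chromosome arm 2R, 20 on 3R, 18 on 2L, 13 on 3L, 14 on the X chromosome and 1 on chromosome 4.

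All cells came from 1 group, Mhc-TAU-GFP flies with no further treatment, in which the GFP label follows Myosin heavy chain (Mhc), the main myosin of muscle. Embryos of 19 to 20 h were pooled and dissociated, and GFP-positive cells that took up DRAQ5, a DNA dye, and kept out DAPI were sorted singly into 96-well plates. Smart-seq2, a full-length cDNA method, was run on them with added primers for 7 Hox genes. Every library has its own plate position. No label gives an animal or a culture, which makes the cells 1 sample and the 15 plate numbers technical units, and no test was possible. Values below therefore carry the SD over plates, a technical spread, or an exact Clopper-Pearson interval, which covers counting error only.

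A ribosome is built from a small subunit, which reads the mRNA, and a large subunit, which joins the amino acids. Each subunit has a core of ribosomal RNA (rRNA), made by RNA polymerase I, and a coat of ribosomal proteins, most of which are present in a single copy and are needed in like amounts. In flies, loss of 1 copy of many of these genes gives the slow-growing Minute phenotype, and several genes have a second copy elsewhere in the genome that is used mostly in the germline.

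Cells entered the analysis with at least 500 genes at 10 reads or more, and 28 cells were left out. The others held a median of 402730 reads without rRNA (34569 to 5393800), and 34.6% of all their reads were rRNA (median, 1.28 to 95.8%). The sort label was matched by Mhc reads in few cells. At least 10 reads of Mhc were found in 13.5% of cells, of Ppn (papilin, a matrix protein made by hemocytes) in 28.2%, of apolpp (apolipophorin, a lipoprotein of fat body) in 41.8%, and of esg (escargot, a Snail-family transcription factor) in 11.6%. None of these 4 markers reached 10 reads in 14.5% of cells, and 73 cells had 2 or more. Without Mhc itself, which makes the split, all 11 other muscle markers were past 2-fold higher in mean CPM in the cells with Mhc, where they summed to a median of 1.72% of reads (0 to 33.8%) against 0.00411% (0 to 9.98%) in the other cells.

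Ribosomal protein mRNA took a median of 13.8% of the reads without rRNA of a cell. The share ran from 0.187 to 38.4%, with 90% of cells between 4.41 and 25.2%, and 5 cells lay under 1%. By plate, the median share was 14.2% ± 2.62 (SD, n = 15 plates), lowest on plate 5 (9.29%) and highest on plate 16 (19.9%). Pooled over all reads the share was 14.3% (interval 14.3 to 14.3). Per length, on the TPM scale, which divides by transcript length, it was larger, with a median of 23.1%. Large-subunit genes held a median of 8.50% and small-subunit genes 5.40% of reads, and their log2 ratio was 0.64 ± 0.10 (SD, n = 15 plates) in the plate medians.

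Nearly the whole set was read in nearly every cell. A median of 82 members had 10 reads in a cell, 700 cells had at least 75, and 77 members were detected in at least 85% of cells. Compared per length, 79 members were among the 200 genes with the highest mean TPM, and 77 were at 1000 TPM or more. The member median was 2708 TPM against 12.8 TPM over all genes of the table.

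The highest member by mean TPM was RpS25 (FBgn0086472, chromosome 3R, 11215028 to 11216287), a small-subunit protein near the mRNA exit. Its plate means of TPM ran from 5314 to 9698, with a mean over cells of 7481 ± 1242 (SD, n = 15 plates). It was followed by RpS7 with 6963 ± 1208 TPM and by RpLP1 with 6890 ± 934.8 TPM, a P protein of the stalk that recruits translation factors to the large subunit. RpL32 of the large subunit came next with 5943 ± 1621 TPM. Neighbours among RpS25, RpS7 and RpLP1 differed by less than their spread over plates. RpLP1 and RpL32 differed by less than the SD of RpL32 but not that of RpLP1. The plate ranges of these 4 overlapped. The other stalk genes were lower, RpLP2 at 4704 ± 730.4 TPM and the scaffold RpLP0 at 1719 ± 337.1 TPM. RpL40 and RpS27A, which are made as fusions to ubiquitin, had 4921 ± 883.1 and 3490 ± 472.1 TPM.

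Among the members far below the rest, RpLP0-like had 140.6 ± 33.03 TPM, RpS15Ab 127.8 ± 35, RpS10a 4.12 ± 5.89 and RpL37b 2.50 ± 3.95 TPM. RpS15Ab, RpS10a and RpL37b are second copies of a member that was read in most cells. Each has 1 exon in the annotation, while their partners have 3. RpLP0-like, RpL7-like and RpL24-like are relatives of ribosomal proteins whose human counterparts act in building the large subunit. RpL24-like had 746.2 TPM, and the plate means of RpL7-like ran from 75.7 to 261.6 TPM.

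The cells were next split by 10 reads of each marker, and the share was compared on both sides and within plates. By reads, the median share was lowest in cells with Mhc or Ppn and highest in cells with esg. By TPM it was close to that of the other cells with Mhc. With apolpp it was then lower, not higher, by less than the spread over plates. The single-cell ranges overlapped in every split. In cells with 1 marker only, the median share was 9.52% with Mhc (6.06% of all cells), 10.7% with Ppn (24.1%), 16.2% with apolpp (36.6%) and 19.3% with esg (9.77%), against 13.5% in the cells with none. Within plates, the log2 ratio of 1 marker only to none was -1.06 ± 1.11 for Mhc (SD, n = 9 plates), -0.38 ± 0.56 for Ppn (n = 15), 0.32 ± 0.41 for apolpp (n = 15) and 0.63 ± 0.55 for esg (n = 12), and the first 3 were less than their spread. It was negative on 8 of 9 plates for Mhc and on 11 of 15 for Ppn, and positive on 14 of 15 for apolpp and on 11 of 12 for esg.

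**Figure D1:**
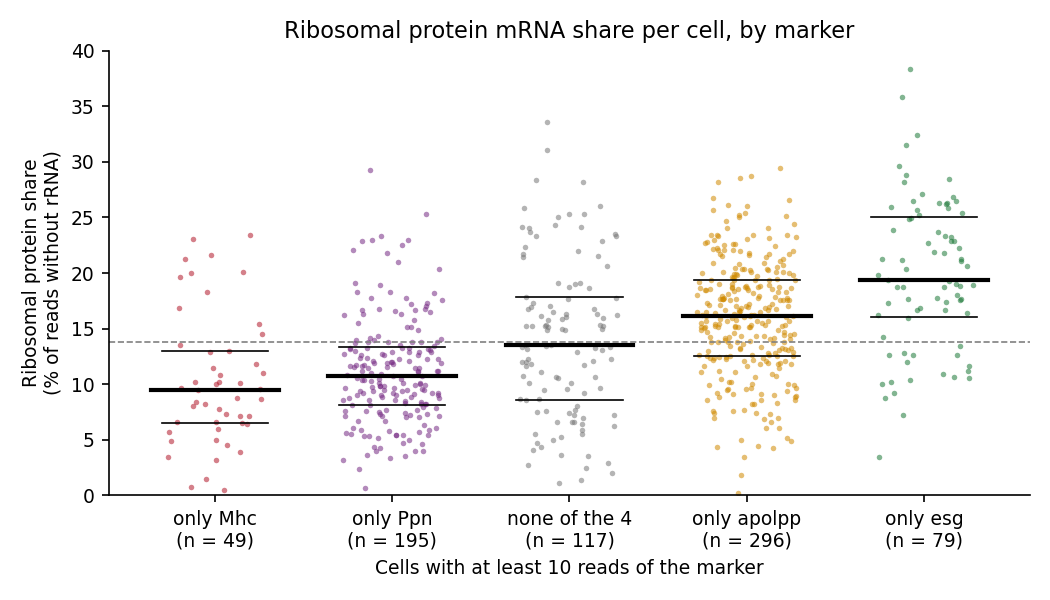
Ribosomal protein share of each cell (percent of reads without rRNA, y axis) for cells with at least 10 reads of 1 marker only or of none (x axis). Points are cells, thick lines medians, thin lines quartiles and the dashed line the median of all cells (13.8%). The medians run from 9.52% with Mhc to 19.3% with esg and the clouds overlap. TPM shares were compared only between all cells with a marker and all without it. The log2 ratios are -0.04 for Mhc, -0.21 for Ppn, -0.11 for apolpp and 0.87 for esg. Within plates the apolpp ratio is -0.05 ± 0.13 (SD, n = 15 plates), less than its spread.

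In cells with Mhc the share was 10.8% (0.471 to 23.9%), against 14.3% (0.187 to 38.4%) in the others, a log2 ratio of -0.40. Within plates the ratio was -0.35 ± 0.42 (SD, n = 13 plates), which is less than the spread, and it was negative on 10 of 13 plates. Plate 17 held 32 of the cells with Mhc, and without it the ratio was -0.50. On the TPM scale it was -0.04, with 22.5% against 23.2%, and within plates it averaged 0.03 ± 0.21, positive on 5 of 13. All 8 hemocyte markers were past 2-fold lower in these cells, summing to a median of 0.113% of reads (0 to 16.8%) against 2.12% (0 to 23.5%), and their part in the result was not tested.

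In cells with Ppn the share was 10.5% (0.671 to 29.3%), against 15.6% (0.187 to 38.4%) without, a log2 ratio of -0.57. It was lower on 15 of 15 plates, by a mean ratio of -0.63 ± 0.20 (SD, n = 15 plates). The cells without Ppn include those with apolpp and esg, and against the cells with none of the 4 markers the mean ratio was smaller than its spread, as given above. Of the 7 hemocyte markers other than Ppn, 6 were past 2-fold higher in these cells and none was past 2-fold lower. They summed to a median of 10.2% of reads (0 to 21.9%), against 0.949% (0 to 7.30%) in the other cells. With the 20 most abundant other genes left out of the library size the ratio was -0.27, and on the TPM scale it was -0.21 and negative on 13 of 15 plates. All 4 fat body markers tested were past 2-fold lower in cells with Ppn, with a summed median of 0% (0 to 1.90%) against 0.259% (0 to 5.18%), and the part of these lists in the result was not tested.

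The direction of the apolpp split depended on the unit. By reads, the cells with apolpp had a share of 15.7% (0.187 to 29.5%) against 12% (0.471 to 38.4%), a log2 ratio of 0.39 that was positive on 15 of 15 plates (0.44 ± 0.14, SD, n = 15 plates). By TPM the medians were 22.3 and 24.1%, a ratio of -0.11 that was negative on 9 of 15 plates (-0.05 ± 0.13). Single other genes held different shares by the 2 units. CG31775 held 1.40% of the CPM and 4.20% of the TPM in cells with apolpp, against 0.0110 and 0.0432% in the others, and the collagen gene Col4a1 held 1.60% of the CPM and 0.174% of the TPM with apolpp, against 3.05 and 0.465%. Nplp2 held 3.79% of the CPM and 9.25% of the TPM with apolpp, against 3.51 and 11.4%. The 3 tested fat body markers other than apolpp were past 2-fold higher in cells with apolpp, with a summed median of 0.282% (0 to 1.62%) against 0% (0 to 0.259%). All 12 muscle and 6 of 8 hemocyte markers were past 2-fold lower in mean CPM, though the summed median of the hemocyte list was higher (2.15 against 0.105%). The part of these genes and lists in the result was not tested.

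In the 94 cells with esg the share was 19.6% (3.48 to 38.4%) against 13.2% (0.187 to 33.6%), a log2 ratio of 0.57. The ratio was positive on 12 of 14 plates (0.43 ± 0.29, SD, n = 14 plates). On the TPM scale the contrast was larger, 40.7 against 22.2%, a ratio of 0.87 that was positive on 14 of 14 plates (0.78 ± 0.21). These cells had a lower rRNA share (median 25.9 against 36.4%) and fewer genes detected (1421 against 1694). The 4 markers listed for esg-positive cells besides esg were past 2-fold higher in them, summing to a median of 0.212% (0 to 1.21%) against 0% (0 to 0.354%). All 12 muscle, all 8 hemocyte and all 4 fat body markers were past 2-fold lower in mean CPM, though the summed median of the muscle list was higher (0.0151 against 0.00604%). Their part in the result was not tested.

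Gene by gene, few members were past 2-fold in these splits. The ratio was taken for the 84 members with a mean CPM of at least 10, among 6462 such genes, as the log2 ratio of mean CPM + 1, CPM being reads scaled to the same library size without rRNA. No member passed 2-fold in the Mhc split, where 28.5% of all tested genes did. In the Ppn split 2 members passed, 1 upward (8.19% of all genes) and RpS15Ab downward (29.1%), against 37.2% of all genes in either direction. In the apolpp split 2 members passed, RpS15Ab upward (12.7% of all genes) and 1 downward (43.8%), against 56.5% in either direction. In the esg split 3 members passed, RpL15 and RpL24-like upward (25.5% of all genes) and RpS15Ab downward (24%), against 49.5% in either direction. For the Mhc split the directions were 16.1% upward and 12.4% downward.

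Some of these counts moved by over 1.5 times under other settings. On the TPM scale 1 member passed in the Ppn split, against 37.3% of all genes. With a marker called at 1 read, 1 member passed for apolpp (43.6%) and 0 for esg (44.5%). In cells with 1 marker only against none, 1 passed for Ppn (49.4%) and 0 for apolpp (59.1%). With poscounts size factors, a median-of-ratios scaling that allows zeros, 1 member passed for Mhc (27.1%), 17 for apolpp (47.7%) and 1 for esg (46.8%).

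The member median was -0.39 in the Mhc split, where the median of all tested genes was -0.02, and 83 of 84 members were below 0. It was -0.49 in the Ppn split, where that of all genes was -0.37, and 82 members were below 0. In the apolpp split the member median was 0.26 and that of all genes -0.81, with 72 members above 0, but on the TPM scale the member median was -0.22 with 66 members below 0. In the esg split it was 0.41 against 0.25 for all genes, with 77 members above 0, but with poscounts size factors it was -0.33 with 71 members below 0. Set against the median of all genes under the same scaling, the member median was 0.88 to 1.06 higher with apolpp and 0.13 to 0.45 higher with esg over the 4 scalings, which were CPM, CPM without the 20 most abundant other genes, TPM and poscounts. The difference was -0.39 to -0.21 with Mhc and -0.21 to -0.01 with Ppn.

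**Figure D2:**
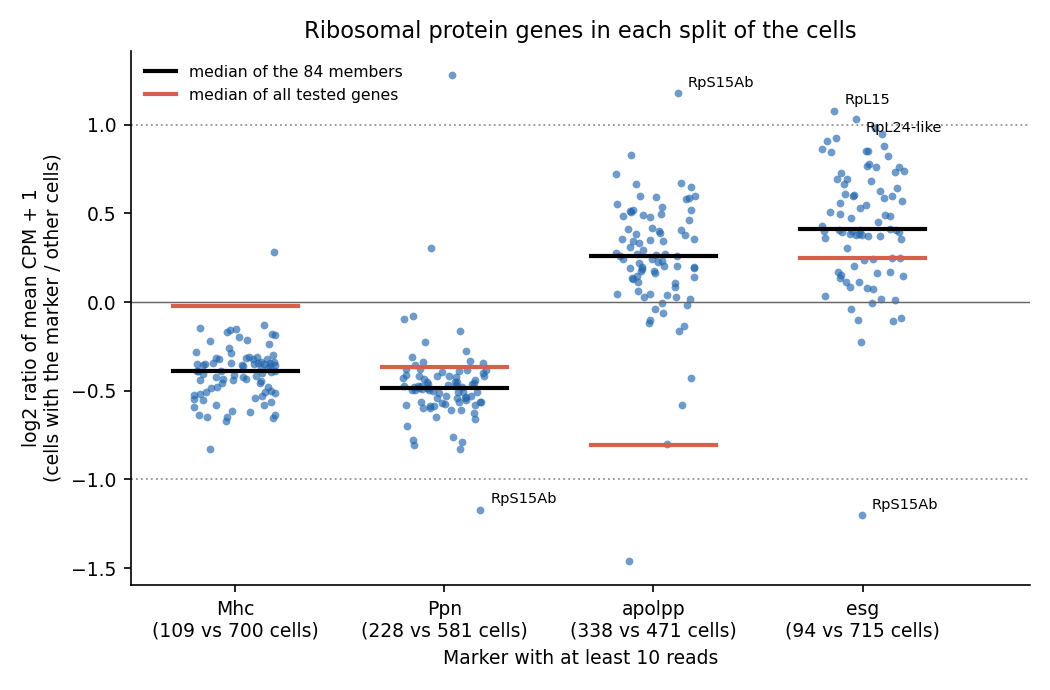
log2 ratio of mean CPM + 1 between cells with and without 10 reads of each marker (y axis), for the 84 tested ribosomal protein genes (points) in the 4 splits (x axis). Black lines are member medians (-0.39, -0.49, 0.26 and 0.41), red lines medians of all 6462 tested genes, and dotted lines mark 2-fold. Most genes past 2-fold are named. The member median has the opposite sign on the TPM scale for apolpp and with poscounts size factors for esg.

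Within the Mhc split, RpLP0-like had the lowest ratio (-0.83, mean CPM 76.1 against 135.8). It was followed by RpL36A (-0.67) and RpL41 (-0.65), 2 small basic proteins of the large subunit. RpS15Ab (0.28) was the only member above 0, and RpS6 (-0.13), the substrate of the growth-regulated S6 kinase, and RpL38 (-0.15) were the next highest. In cells with Mhc only, however, RpS15Ab had a lower mean (58.5 CPM) than in cells with none of the 4 markers (86.9 CPM). The lowest single members of the Ppn split after RpS15Ab were RpL34b (-0.83) and RpLP0 (-0.81), and RpLP0-like (0.31) and RpL7-like (-0.08) were among the highest. In the apolpp split, both copies of RpL34 followed RpS15Ab, RpL34a with 0.83 (14 of 15 plates) and RpL34b with 0.72 (1652 against 999 CPM).

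RpL15 (FBgn0028697, chromosome 3L, 27267255 to 27268445), a large-subunit protein, had the highest ratio in the esg split. Its mean was 5076 CPM in cells with esg and 2407 CPM in the others, a log2 ratio of 1.08, positive on 14 of 14 plates (SD 0.38). In the apolpp split it was lower instead, with 2111 against 3152 CPM (-0.58, negative on 14 of 15 plates), while 72 of 84 members were above 0 on this scale. Its esg ratio was 0.36 to 1.21 over the 4 scalings, lowest with poscounts size factors. RpL24-like had a ratio of 1.03, positive on 14 of 14 plates, and RpS24 had 2676 against 1354 CPM (0.98). RpS14a (-0.11) was among the lowest. Without plate 15, where 49.8% of all genes passed, RpL38 (1.11) and RpS24 also passed 2-fold in this split. On the TPM scale 15 members did, all upward, against 26.1% of all genes upward and 50.3% in either direction, among them RpS24 (1.22), RpL15 (1.21), RpL24-like (1.21), RpL38 (1.20) and RpS7 (1.17).

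RpS15Ab (FBgn0033555, chromosome 2R, 10821676 to 10822399), the second gene for the small-subunit protein RpS15A, was detected, with at least 10 reads, in 38.3% of cells (exact 95% binomial interval 35 to 41.8, for counting error only), with a median of 1.03 CPM and a highest cell of 1524 CPM. With apolpp only, 58.8% of cells had 10 reads (52.9 to 64.5), with Ppn only 23.1% (17.4 to 29.6), and with esg only 7.60% (2.84 to 15.8). Thinned to 106282 reads per cell, which left out 81 cells, these were 49.3, 17.7 and 8.22%. The detected share was higher with apolpp on 15 of 15 plates, by 35.7 ± 14.5 points, and lower with esg on 14 of 14, by a difference of -29.7 ± 12.9 points. In mean CPM the apolpp contrast was 120.7 against 52.9 (1.18) and the esg contrast 37.3 against 87 (-1.20). Over the 4 scalings they ran from 0.73 to 1.69 and from -2.12 to -0.79. The other sides of these contrasts hold cells with the other markers. The mean was 115.1 CPM with apolpp only, 26.6 CPM with esg only and 86.9 CPM with none of the 4 markers. RpS15Aa, the main gene, had ratios of 0.51 and 0.11 in the same splits.

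**Figure D3:**
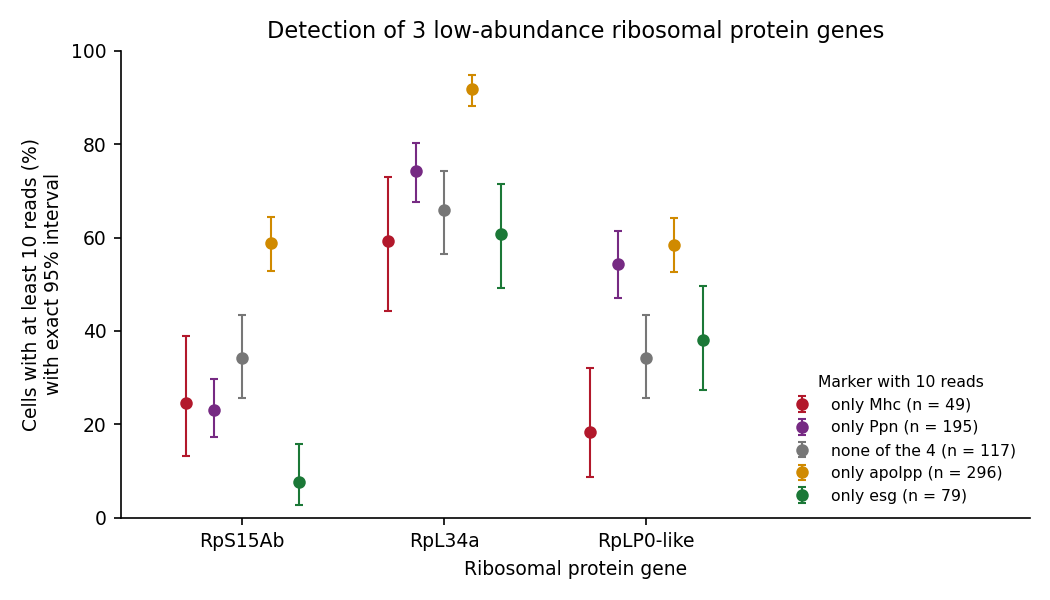
Percent of cells with at least 10 reads (y axis) of RpS15Ab, RpL34a and RpLP0-like (x axis), in cells with 1 marker only or none (colours). Bars are exact 95% intervals, which cover counting error only. RpS15Ab and RpL34a are highest with apolpp (58.8 and 91.9%), and RpLP0-like is lowest with Mhc (18.4%).

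RpL34a was detected in 91.9% of cells with apolpp only (interval 88.2 to 94.7), and in 74.4% with Ppn only (67.6 to 80.3), 60.8% with esg only (49.1 to 71.6) and 59.2% with Mhc only (44.2 to 73). Within plates its detected share was 24.4 ± 11.7 points higher with apolpp (15 of 15 plates). It gave 26.9% of the TPM of the RpL34 pair over all cells, and this share stayed between 24.2 and 29.3% on both sides of all 4 splits. RpLP0-like was detected less often with Mhc than without on 13 of 13 plates, with a difference of -21.8 ± 18.2 points. RpL24-like, by contrast, was read in 84.3% of all cells, and RpL7-like in 60.1%.

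The tandem pair RpS14a and RpS14b on the X chromosome gave 3029 and 910.6 TPM. The Spearman correlation between the 2 was 0.59 across cells. Since the copies are near-identical and reads were assigned by pseudoalignment, their division is uncertain. RpL37a and RpL37b, now named RpL37-1 and RpL37-2, gave 2845 and 2.50 TPM, and RpL37A, whose symbol differs from RpL37a in case alone, is another protein, with 2850 TPM. RpS10a had 10 reads in 1.24% of cells and RpL37b in 0.865%, and neither reached a mean of 10 CPM.

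The members were then set against the rRNA share of the cell, which measures how much of the library was ribosomal RNA carried into cDNA. The summed share of the ribosomal protein genes showed almost no monotonic relation to it. The Spearman correlation over the kept cells was 0.04 and Pearson's r -0.06, and within plates the Spearman value averaged -0.01 ± 0.31 (SD, n = 15 plates), positive on 7. From the lowest to the highest quartile group of rRNA share the median ribosomal protein share was 11.99, 14.6, 15.5 and 12.8%.

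In bins of 10 points, set after the data were seen, the share was 9.26% in the 22 cells under 10% rRNA and 17.6% in the 54 cells at 60 to 70%. It was 5.66% in the 30 cells above 90% rRNA, which had a median of 83006 reads without rRNA against 268920 in the bin at 60 to 70%. With apolpp the share was 10% under 10% rRNA, highest in the bin at 60 to 70% (19.7%), and 6.06% above 90%. Without apolpp it was 5.76% under 10% rRNA, highest at 20 to 30% (14.6%), between 12.4 and 13.5% in the bins from 30 to 70%, and 5.43% above 90%. The outer bins held 7 to 23 cells each in these classes.

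**Figure D4:**
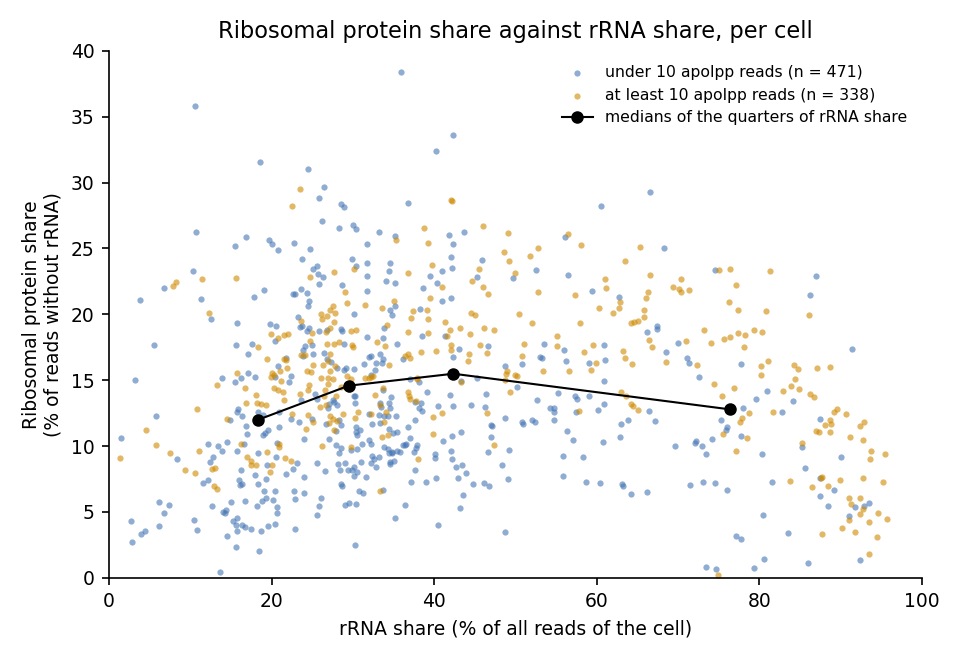
Ribosomal protein share (percent of reads without rRNA, y axis) against rRNA share (percent of all reads, x axis) for each kept cell, coloured by 10 reads of apolpp. Black points join the medians of the 4 quartile groups of rRNA share (11.99, 14.6, 15.5 and 12.8%). The Spearman correlation is 0.04, and cells above 90% rRNA lie low.

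Single members differed along the rRNA share in both directions. Between the highest and the lowest quartile group, 6 members were past 2-fold higher, against 11.1% of all tested genes, and 2 past 2-fold lower, against 32.5% (43.6% in either direction), and the member median was 0.07 against -0.48 for all genes. The sign of the member median depended on the scaling. By TPM it was -0.14, with 50 members below 0, against -0.66 for all genes. With poscounts size factors it was 0.235, with 58 members above 0, against -0.188 for all genes. Set against the median of all genes under the same scaling, it was 0.423 to 0.545 higher over the 4 scalings. The highest quartile group had fewer reads without rRNA (median 159696 against 600428) and more cells with apolpp (59.6 against 33%), with 3 of 4 fat body markers past 2-fold higher. It also had fewer cells with esg (3.45 against 19.7%), with 4 of 5 markers of esg-positive cells past 2-fold lower. The part of these differences in the result was not tested, but the split was also made within cells with and without apolpp. Cells with esg were not set apart in it, and only 6 of them also had apolpp. Depth differed within the apolpp classes too. Median reads without rRNA were 126900 in the highest and 935904 in the lowest group with apolpp. Without apolpp they were 163098 and 490795.

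The highest ratio belonged to RpS23 (FBgn0033912, chromosome 2R, 14215096 to 14216627), a protein of the decoding centre. It had a median of 1369 CPM over all cells and a highest cell of 10070 CPM. Its mean was 3059 CPM in the highest and 1070 CPM in the lowest quartile group, a log2 ratio of 1.51 that was positive on 12 of 12 plates (SD 0.57). Within cells with apolpp the ratio was 1.49 (13 of 13 plates) and within cells without it 1.25 (10 of 10 plates). Over the 4 scalings it was 1.19 to 1.65.

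RpS26 (1.24), RpS15Aa (1.22), RpL34b (1.20) and RpS14a (1.02) followed. With apolpp, those past 2-fold higher were RpS23, RpS26, RpL34b and RpLP0-like (23.3% of all genes). Without apolpp they were RpS15Aa, RpS23, RpS29 and RpS26 (13.2%). RpS26, a protein at the mRNA exit, had 3831 CPM in the highest and 1626 CPM in the lowest quartile group. RpL34b was positive on 12 of 12 plates and RpS15Aa on 11 of 12. Plate 15 gave 29 cells to the highest quartile group and none to the lowest. Without it RpS15Aa was no longer past 2-fold (0.99), while RpL12 (1551 against 746.4 CPM) and RpS21 (845.9 against 417.4 CPM) were.

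The lowest ratio belonged to RpL8 (FBgn0261602, chromosome 3L, 2587456 to 2588883), a protein close to the peptidyl transferase centre. It had a median of 2918 CPM over all cells and a highest cell of 14250 CPM, and its means were 1495 CPM in the highest and 3809 CPM in the lowest quartile group, a log2 ratio of -1.35, negative on 11 of 12 plates. RpL23A, at the exit of the peptide tunnel, had 1242 against 2747 CPM (-1.14, negative on 12 of 12 plates). RpS6 and RpL30 each had -0.93, RpS2 -0.92 and RpL26 -0.91. RpL8 was also lower within cells with apolpp (-1.84) and without (-1.02), and its ratio over all cells was -1.58 to -1.09 over the 4 scalings.

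Across the 84 members, the ratios made within cells with apolpp and within cells without it had a Spearman correlation of 0.87, as a description across genes, which are not independent. Both classes share the difference in depth given above. The sign was shared by 64 of 84 members. Of them, 15 were above 0.5 in both and 10 were below -0.5 in both. With apolpp 4 members were past 2-fold higher (23.3% of all genes) and 14 lower (32.7%), with 56% of all genes in either direction. Without it 4 were higher (13.2%) and 1 lower (26.1%), with 39.3% of all genes in either direction. The ratio over all cells had a Spearman correlation of -0.22 with transcript length, 0.07 with exon number and -0.28 with mean CPM over the 84 members.

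**Figure D5:**
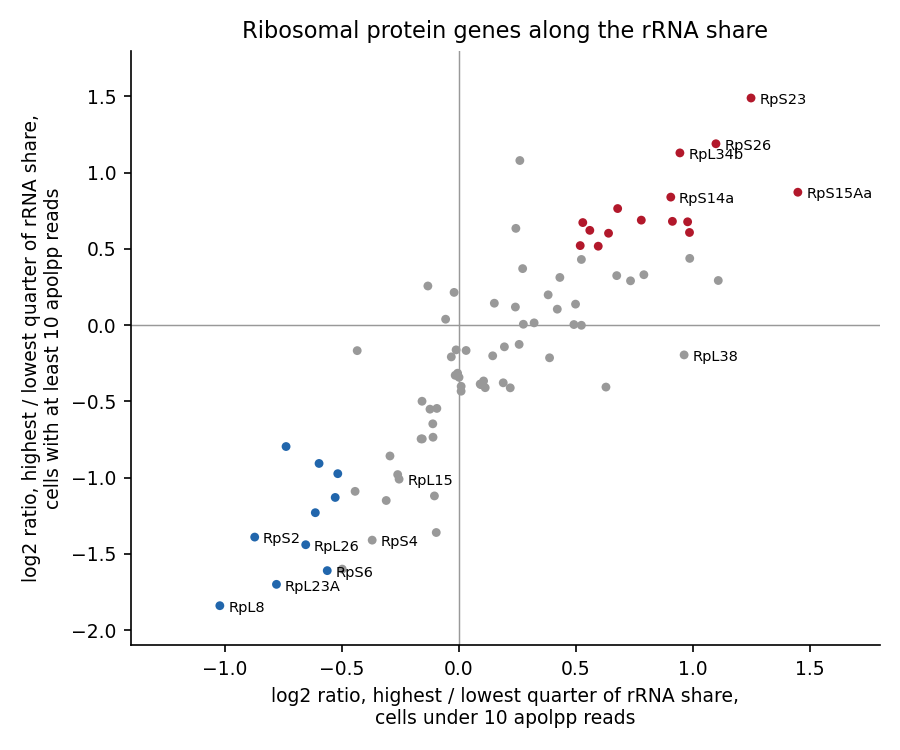
log2 ratio of mean CPM + 1 between the highest and the lowest quartile group of rRNA share, in cells without 10 apolpp reads (x axis) and with them (y axis), for 84 ribosomal protein genes (points, some named). Red and blue points are above 0.5 or below -0.5 in both. RpS23 is at 1.25 and 1.49, RpL8 at -1.02 and -1.84.

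As shares of the reads on all members, RpL8 and RpL23A had a Spearman correlation of 0.57 across cells, and RpS23 and RpS26 of 0.54, while RpL8 and RpS23 had -0.51. In cells with apolpp these values were 0.69, 0.69 and -0.68, and in cells without it 0.45, 0.39 and -0.35. The 3 pairs were chosen after their values were seen, at or near the extremes among the 2926 pairs of the 77 most widely detected members, which ran from -0.51 to 0.57 with a median of 0.04. Such shares sum to 1 within a cell, and the pairs share library and depth.

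Most members followed the rest of the set from cell to cell. The Spearman correlation of a member's CPM with the summed CPM of the other members over the kept cells was among the highest for RpL32 (0.82) and RpL14 (0.82). It was near 0 for the rarely read RpL37b (-0.02) and RpS10a (0.07).

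Among the 77 members detected in at least 85% of cells, the 4 lowest were RpL38 (0.46), RpL15 (0.46), RpS3A (0.49) and RpL5 (0.50). This group was noticed after the values were seen. RpL5 binds the small rRNA of the large subunit, and RpS3A lies at the back of the small subunit. By position, RpL38 lies at 4515388 to 4516458 on chromosome 2R, RpL15 at 27267255 to 27268445 on 3L, RpL5 at 22532279 to 22536884 on 2L, all toward the centromere of their arm, and RpS3A at 65225 to 67207 on the small chromosome 4. RpL10 and RpL21, which were set beside these 4, had higher correlations of 0.70 and 0.67. Whether position goes with a low correlation was not tested.

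Plate 15, which had the highest median rRNA share (63.2%), stood apart for some of these genes. RpS3A had a mean of 10580 CPM there, against 4020 CPM on the next plate, 2634 CPM on the median plate and 2136 CPM on the lowest. RpL5 had 4296 CPM on plate 15 against 2359 CPM on the next plate, RpS29 4110 against 2422 CPM, and RpS15Aa 3558 against 1767 CPM. RpL38 was high on plates 14 and 15, at 2461 and 2425 CPM against a median plate of 547.5 CPM. Over all 84 members, by contrast, the highest plate mean was on plate 16 for 57 members and on plate 15 for 5.

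Without plate 15 the correlation with the summed other members was 0.49 for RpL38, 0.47 for RpL15, 0.54 for RpS3A and 0.52 for RpL5. In the rRNA contrast without that plate, 7 members were past 2-fold higher (11% of all genes) and 2 lower (33.1%), with RpS23 at 1.61 and RpL8 at -1.27.

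The CPM of genes outside the members was also set against the ribosomal protein share. Among the other genes detected in at least 50% of cells, the median Spearman correlation was 0.07, and 21 reached 0.45, as 79 of 81 members did. The closest was a gene listed without a symbol whose ID (FBgn0286213) the annotation gives as RpS12, a small-subunit protein, with 0.77. Rack1 (0.66), a scaffold on the small subunit, and sta (0.63), the fly RpSA protein, came next, then eEF1beta (0.61), an elongation factor subunit, and Nacalpha (0.59), a chaperone at the peptide exit. Cyp1 (0.51), a cyclophilin, Tom7 (0.49), of mitochondrial protein import, awd (0.49), a nucleoside diphosphate kinase, UQCR-Q (0.49), of the respiratory chain, and CG7630 (0.48) completed the 10 highest. The lowest were drpr (-0.36), an engulfment receptor of glia and hemocytes, CycG (-0.34), Ten-m (-0.32), CG3164 (-0.32) and Abl (-0.32). These correlations run over cells of all marker classes. In the Ppn split, where the share was lower, the log2 ratios of the lowest genes were 0.545 (CycG) to 4.26 (Abl). UQCR-Q had -1.26 and CG7630 -1.43 there. The part of the marker classes in the correlations was not tested.

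RpS12 had 5451 ± 929.2 TPM (SD, n = 15 plates), sta 4382 ± 1004 TPM and Rack1 970 TPM. In the esg split sta had 8728 against 4058 CPM (1.10, 14 of 14 plates), more than RpS12 with 2862 against 2401 CPM (0.25, 11 of 14 plates). With RpS12 and sta added to the members, the median share was 14.5% and the 4 split ratios were -0.42, -0.57, 0.38 and 0.58.

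Lists of genes that work with or build the ribosome were compared in the same splits. None of the 5 listed ribosome partners was past 2-fold in the Mhc, Ppn or apolpp split, against 28.5, 37.2 and 56.5% of all genes, and 1 (sta) was higher in the esg split, against 25.5%. Of 35 tested initiation factor genes, 11 were past 2-fold higher with esg, not far from the 25.5% of all genes. Among them were the helicase eIF4A (1.42) and eIF3l (1.33). The median ratio of the list was 0.69 by CPM but -0.05 with poscounts size factors. In the highest rRNA quartile group 15 were past 2-fold lower, against 32.5% of all genes, and the list median was -0.80 to -0.24 over the 4 scalings. Of 6 elongation factor genes, 1 (eEF1alpha1, 1.13) was past 2-fold higher with esg, against the same 25.5%. Their median ratio was 0.72 by CPM and -0.05 with poscounts size factors. Of 15 genes of ribosome biogenesis and RNA polymerase I, 6 were past 2-fold lower with Mhc, against 12.4% of all genes, including the polymerase subunits RpI12 (-1.64) and RpI135 (-1.08) and the methyltransferase Fib (-1.08), where no ribosomal protein gene was. Over the 4 scalings the median ratio of these genes was -1.02 to -0.59, weakest on the TPM scale.

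The 73 genes for mitochondrial ribosomal proteins, which serve the separate ribosome of that organelle, had larger ratios than the cytoplasmic set in the Ppn and apolpp splits. With Ppn, 62 of 73 were past 2-fold lower, against 29.1% of all genes and 1 of 84 cytoplasmic members. With apolpp, 51 of 73 were past 2-fold higher, against 12.7% of all genes and again 1 of 84. Over the 4 scalings the median ratio of these genes was -1.79 to -1.38 with Ppn and 0.79 to 1.93 with apolpp. The 2 splits are not separate results. Only 7 cells had both markers, and the other side of each split holds most cells of the other marker. Cells with 1 marker only were not compared for these genes. Their summed level was a median of 0.107% of reads with Ppn and 0.534% without, and 0.682% with apolpp and 0.206% without. Across all cells that sum had a Spearman correlation of 0.52 with the cytoplasmic share. In the esg split the mitochondrial genes had a median ratio of -0.32, and the cytoplasmic members 0.41. There 11 of 73 were past 2-fold lower (24% of all genes) and 1 higher (25.5%). The mitochondrial median was -1.18 to -0.03 over the 4 scalings. With poscounts size factors, which gave -1.18, the cytoplasmic median was also below 0 (-0.33). Among 12 regulators of growth, 5 were past 2-fold lower with apolpp, close to the 43.8% of all genes. Their median ratio was -1.12 to -0.03 over the 4 scalings. In the highest rRNA quartile group 4 of the 12 were past 2-fold higher, against 11.1% of all genes, and 2 lower, against 32.5%. Myc, a driver of ribosome genes, was among the higher (1.16), and the transcription factors M1BP and Dref, each at -1.43, were the lower. The median ratio of the list was 0.10 to 0.54 over the 4 scalings, lowest by TPM, where 7 were tested.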

How the data were processed

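RNA of single sorted cells was measured by Smart-seq2. The authors removed poly-A tails from the reads and pseudoaligned them to the BDGP6 cDNA of Ensembl, with kallisto 0.43.0 and R 3.5.1 named in the submitters' processing notes. They deposited expected counts per gene as whole numbers for the whole series, and estimated counts and TPM per transcript for each cell. The release of the cDNA is not given in the sources used here. Of 30651 transcripts, 30086 had the length of the annotation used here for names and positions, and transcripts without a gene in it held 0.216% of reads.

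CPM was computed from the deposited estimated counts without the 11 rRNA genes, in the 809 of 837 cells with 500 genes at 10 reads. Of these, 109 had 10 reads of Mhc, 228 of Ppn, 338 of apolpp and 94 of esg, those with 1 marker only were 49, 195, 296 and 79 cells, and 117 had none. The outer quartile groups of rRNA share held 203 cells each. The authors' TPM per transcript was added up by gene and rescaled without rRNA. A gene was detected at 10 reads. Ratios are log2 of mean CPM + 1, called at 2-fold for genes with a mean of 10 CPM, and within-plate values needed 3 cells a side. Correlations are descriptions. No doublet caller was run, and no test was made, since the cells were 1 sample. Reads are not independent molecules. Python 3.11.15, numpy 2.4.6, pandas 2.3.3 and scipy 1.17.1 were used, and the ratio step was tested on simulated data.

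Members and lists were chosen with earlier results of these data known. Named were the 5 members highest and lowest by TPM, all paralog pairs, the 3 highest and lowest ratios of each contrast, the 3 highest and lowest correlations with other members, the 10 and 5 other genes most and least like the share, and list examples. The plate 15 values, the near-centromere genes, the bins of rRNA share, RpS24, RpS2, RpL26, RpL12, RpS21 and the members called without plate 15 or on TPM were named after their values were seen. A few members that the rule names are not reported here.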

Additional observations from a re-analysis of the deposited data

Results flagged for a closer look

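A pair of ribosomal protein signals lay outside the set as the symbols define it. RpS12 has no symbol in the gene table, and its table entry had a mean of 2454 CPM, with at least 10 reads in 98.4% of cells. RpS19b, a second copy of RpS19a used in the germline, is not in the gene table but is in the files of the single cells, where it had 10 reads or more in 5 cells and 3 or more in 6. Of the other annotated copies not in the gene table, RpL22-like had 40 reads, RpS28a 2, RpL10Aa 1 and RpS28-like 0.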

How the results depend on the processing

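Of the recomputed values other than those leaving out a plate, 90 moved by less than the spread over plates (counts, less than 1.5 times), 24 moved further and 1, the apolpp ratio on the TPM scale, turned the direction of a difference larger than its spread. Counts were compared with both directions added together, so a shift between directions, as in the rRNA contrast, does not show here. The values against the rRNA share, which were smaller than their spread as reported, changed sign more often, the correlation under 3 of 5 alternatives and the ratio between the outer quartile groups under 4 of 9. By TPM these were -0.0683 and -0.0642, as medians of within-plate values -0.131 and -0.401, and the ratio within cells with apolpp was -0.204. Leaving out each plate in turn gave a median share of 13.5 to 14.3%, ratios of -0.504 to -0.365 for Mhc, -0.605 to -0.527 for Ppn, 0.366 to 0.416 for apolpp and 0.509 to 0.638 for esg, a correlation with the rRNA share of -0.0464 to 0.0658, and a ratio between its outer quartile groups of -0.168 to 0.264, whose sign was not stable. With rRNA kept in the library size, the median share was 7.83%, the esg ratio 0.908, the correlation -0.537 and the quartile group ratio -1.77, as the larger divisor implies. Without the 20 most abundant other genes the share was 18% and the Ppn ratio -0.265. On the TPM scale the share was 23.1%, the ratios were -0.214 for Ppn, -0.111 for apolpp, which turned, and 0.874 for esg, and the members past 2-fold were 1 for Ppn and 15 for esg. With a marker set at 1 read, 1 member was past 2-fold for apolpp and 0 for esg. In cells with 1 marker only against none, the Ppn ratio was -0.336 and members past 2-fold were 1 for Ppn and 0 for apolpp. With poscounts size factors they were 1 for Mhc, 17 for apolpp and 1 for esg. Quartile groups of rRNA share gave 18 members within cells with apolpp and 5 within cells without. Without plate 15 the esg count was 5. Median members detected were 81 after thinning and 80 at 50 reads. The cause of these shifts was not tested.

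The quartile groups within apolpp classes, the addition of RpS12 and sta, the set without paralogs and -like genes, and the gene counts without plate 15 or plate 17 were chosen after seeing the data. An alternative without near-identical proteins was not run, because no protein sequences were used here. No paired analysis was possible because the cells form 1 group. Depth limits the rarely read members most: RpS10a and RpL37b were under a mean of 10 CPM.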

Other observations

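The median log2 ratio of large- to small-subunit reads was 0.69 with Mhc, 0.67 with Ppn, 0.65 with apolpp and 0.70 with esg, against plate medians of 0.64 ± 0.10 (SD, n = 15 plates). On plate 15 the plate median was 0.33, the lowest of the 15 plates, with 0.53 on the next. Plate 5, with the lowest median share (9.29%), had 66 cells, and plate 16, with the highest (19.9%), had 49.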
